A study of Mus musculus with 80 samples.

Results

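Immediate early genes and inducible heat shock genes were followed in 80 mouse mammary tumours. The 10 genes are Fos, Fosb, Jun, Junb, Egr1, Atf3, Ier2, Zfp36, Hspa1a and Hspa1b. They were taken by name, with every probe set that carried that symbol alone, from 12393 genes on the array. Of the 10 genes, 9 were among the 8769 genes that passed a filter on dim signals, and Fosb was not. The tumours came from 4 groups of 20, with 1 array per tumour: E2F1 null, E2F2 null, E2F3 heterozygous and wild type for the E2F genes. All 4 groups, wild type included, carried the MMTV-Myc transgene on the FVB strain, in which a mouse mammary tumour virus promoter drives the Myc oncogene in mammary epithelium. Each primary tumour was taken at its endpoint and flash frozen, and total RNA was extracted from the whole piece. The age of the mice and the time between dissection and freezing are given in none of the sources used here.

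Immediate early genes are transcribed within minutes of a stimulus, without new protein synthesis, when kinases such as those of the MAPK cascade act on transcription factors already bound to their promoters. Fos, Fosb, Jun, Junb and Atf3 encode basic leucine zipper proteins that pair with each other to form the AP-1 and ATF complexes. Egr1 encodes a zinc finger transcription factor, Ier2 a small nuclear protein, and Zfp36 (tristetraprolin) an RNA-binding protein that shortens the life of AU-rich cytokine and immediate early transcripts. Hspa1a and Hspa1b encode the inducible HSP70 chaperone, and heat shock factor 1 switches both on when unfolded protein accumulates. Growth factors and inflammatory signals induce these genes in living tissue, and so do warming, ischaemia and dissociation of a tissue after it is removed.

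The promoters of 6 of the 10 genes are shown because these genes are known to be induced through elements upstream of their starts. They are the 250 bases before the annotated start, from RefSeq on GRCm38.p6, which had an entry for 8 of the 10 genes. Capitals in Fos, Jun, Junb and Zfp36 mark TGACG (the core of a cAMP response element), TGANNTCA (its longer form), TATAAA and the CArG box, the site of serum response factor, each searched on both strands. Capitals in Hspa1a and Hspa1b mark GAANNTTC or TTCNNGAA, a facing pair of heat shock element units, and CCAAT on either strand.
Fos: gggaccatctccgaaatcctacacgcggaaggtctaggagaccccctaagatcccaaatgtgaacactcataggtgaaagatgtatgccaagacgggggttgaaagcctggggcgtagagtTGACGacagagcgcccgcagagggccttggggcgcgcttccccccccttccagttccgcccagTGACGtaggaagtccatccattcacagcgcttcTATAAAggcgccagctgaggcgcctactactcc
Jun: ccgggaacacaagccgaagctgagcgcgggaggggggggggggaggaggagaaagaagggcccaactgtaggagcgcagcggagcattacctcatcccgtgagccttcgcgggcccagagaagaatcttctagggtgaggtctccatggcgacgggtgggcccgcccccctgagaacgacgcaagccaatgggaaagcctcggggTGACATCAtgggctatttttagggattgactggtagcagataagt
Junb: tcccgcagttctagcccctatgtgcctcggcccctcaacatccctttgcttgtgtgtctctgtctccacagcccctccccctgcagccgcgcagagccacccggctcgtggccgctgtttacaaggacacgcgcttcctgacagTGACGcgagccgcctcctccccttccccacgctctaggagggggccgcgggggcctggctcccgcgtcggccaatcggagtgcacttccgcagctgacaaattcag
Zfp36: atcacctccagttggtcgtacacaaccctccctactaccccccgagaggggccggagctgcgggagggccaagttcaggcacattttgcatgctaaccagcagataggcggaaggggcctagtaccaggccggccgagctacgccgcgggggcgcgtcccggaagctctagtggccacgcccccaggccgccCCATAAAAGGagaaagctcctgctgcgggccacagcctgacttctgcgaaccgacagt
Hspa1a: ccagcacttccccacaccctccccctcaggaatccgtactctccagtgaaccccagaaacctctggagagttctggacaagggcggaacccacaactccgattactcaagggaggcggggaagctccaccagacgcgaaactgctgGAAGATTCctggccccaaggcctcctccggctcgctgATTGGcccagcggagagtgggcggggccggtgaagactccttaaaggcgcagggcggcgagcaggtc
Hspa1b: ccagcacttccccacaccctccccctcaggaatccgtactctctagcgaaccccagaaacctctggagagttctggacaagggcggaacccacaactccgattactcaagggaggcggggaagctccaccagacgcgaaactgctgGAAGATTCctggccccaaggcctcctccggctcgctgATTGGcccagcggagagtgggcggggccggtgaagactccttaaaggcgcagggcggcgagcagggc
The Fos window lies at chr12:85473640-85473889 on the plus strand. The others lie on the minus strand, Jun at chr4:95052223-95052472, Junb at chr8:84978749-84978998, Zfp36 at chr7:28379229-28379478, Hspa1a at chr17:34972157-34972406 and Hspa1b at chr17:34959239-34959488. TGACG was in 4 of the 8 windows (Fos, Fosb, Junb and Atf3) and in 17.8% of all 32851 windows of the same length. The heat shock pair was in 3 of the 8 (Jun, Hspa1a and Hspa1b) and in 12.8% of all windows. The CArG box was in the Zfp36 window alone among the 8, and in 1.47% of all windows. TGANNTCA was in the Jun window alone among the 8 and in 11.9% of all. TATAAA was in the Fos window alone among the 8 and in 12.4% of all. CCAAT was in 4 of the 8 and in 33.8% of all. The Hspa1a and Hspa1b windows had the same base at 247 of 250 positions. The differences, with the Hspa1a base first and positions counted from 1 at the 5′ end of the window, were C44T, T47C and T249G. A match to these letters is a description of the sequence only. A site absent from a window may lie outside the 250 bases searched, and no window of Egr1 or Ier2 was searched.

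The values were MAS5 signals on a linear scale, scaled by the authors so that the trimmed mean of each array lay between 500.17 and 500.22. The tumours carried strong luminal epithelial signal: of a list of 11 luminal markers, with Krt8, Krt18 and Epcam among them, 9 exceeded the dim-signal threshold of 74.6 on every array. None of the 9 named lymphocyte markers on the array passed the filter, and 6 of 8 neutrophil markers did. E2F1 null tumour 6 stood apart, with a mean correlation of 0.819 with the other arrays over the 14092 probe sets that passed the filter. The labels hold a number before a hyphen that 46 of the 80 tumours share with another tumour of their group. Its meaning is not stated, and since tumours that share it may come from 1 mouse, it was a random block in the fits. The 53 numbers, 16 in E2F1 null, 11 in E2F2 null, 10 in E2F3 heterozygous and 16 in wild type, were the units of all correlations. P-values measure the spread between these samples, and in bulk tissue fewer cells of a type and less RNA per cell cannot be told apart.

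No immediate early or heat shock gene passed the threshold of an adjusted p of 0.05 between any mutant background and wild type. In E2F1 null tumours 0 of 9 were called, where 0.0456% of all tested genes were called. In E2F2 null tumours 0 of 9 were called, against 0.0228% of all genes. In E2F3 heterozygous tumours 0 of 9 were called, against 0% of all genes (limma, 8769 genes, Benjamini-Hochberg). At an unadjusted limma p under 0.05 the counts were 0, 2 and 0 of the 9 genes in the E2F1 null, E2F2 null and E2F3 heterozygous groups. Of all 8769 genes these were 112 (1.28%), 538 (6.14%) and 58 (0.661%). The plot of signals by tumour shows how far the groups overlapped for each gene.

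**Figure D1:**
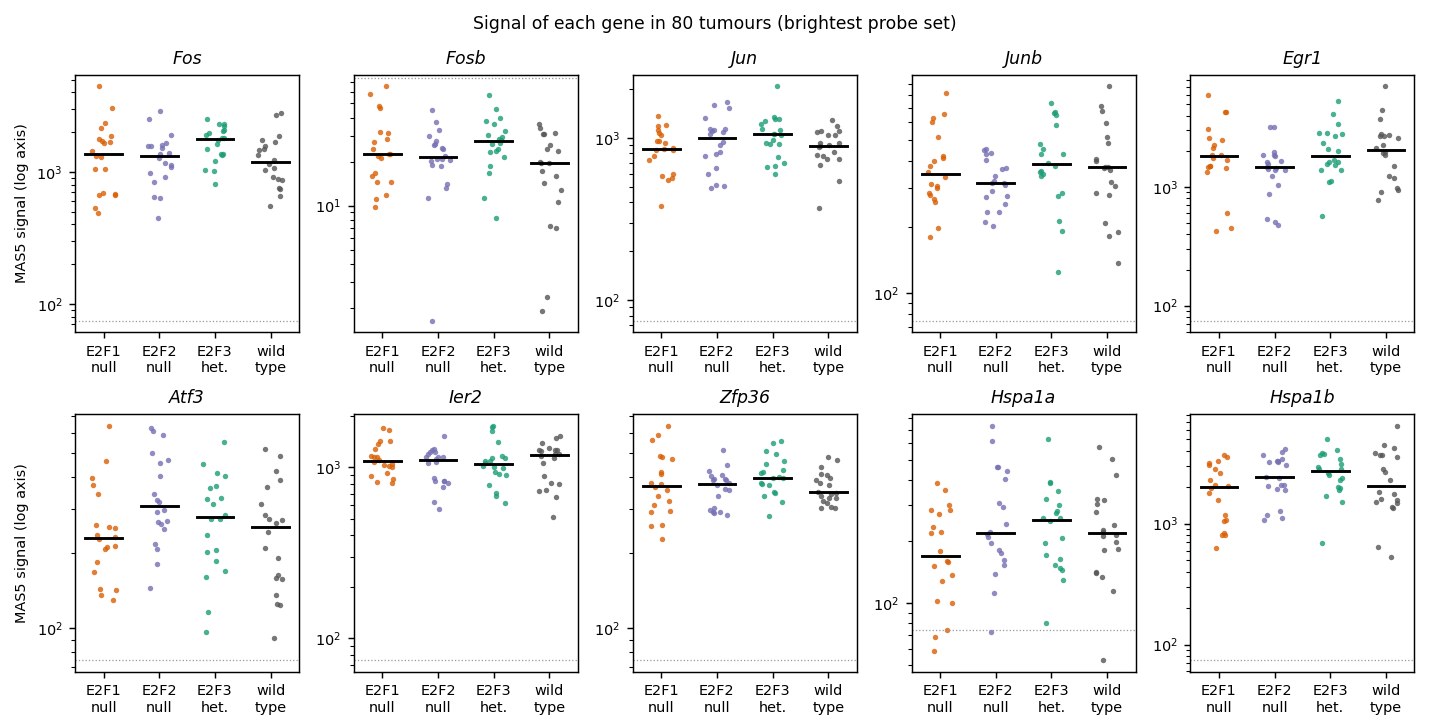
MAS5 signal of the brightest probe set of each gene (log axis, scale differs by panel) in the 20 tumours of each genotype; each point is 1 tumour, black bars are medians, and the dotted line is the dim-signal threshold of 74.6. The 4 groups overlap for all 10 genes, and all 80 Fosb values lie below the dotted line.

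Fos, the partner that gives AP-1 its stable DNA binding, ranged 9.88-fold over the 80 tumours. Its signal ran from 489 to 4451 with a median of 1371 in E2F1 null tumours, from 450 to 2872 with a median of 1315 in E2F2 null tumours, and from 805 to 2502 with a median of 1776 in E2F3 heterozygous tumours, against 554 to 2775 with a median of 1185 in wild-type tumours. The order of medians was E2F3 heterozygous, E2F1 null, E2F2 null, wild type, and the groups overlapped over most of their range. The log2 fold change in E2F3 heterozygous over wild-type tumours was 0.41 (SE 0.22, unadjusted p = 0.0666, limma adjusted p = 1). In E2F1 null tumours it was 0.08 (SE 0.21) and in E2F2 null tumours -0.0064 (SE 0.22).

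Fosb, a Fos relative with the same partners, was close to background on this array. Its single probe set had a median of 22.6 among E2F1 null, 21.4 among E2F2 null and 27.5 among E2F3 heterozygous tumours, against 19.6 in wild-type tumours, and its highest value was 65.4, in E2F1 null tumour 18. At the probe set level, without the filter, its log2 fold change was 0.40 (SE 0.21) in E2F1 null, 0.25 (SE 0.21) in E2F2 null and 0.51 (SE 0.21, unadjusted p = 0.0184, limma adjusted p = 1 over 20380 probe sets) in E2F3 heterozygous tumours. At that level 0 of the 13 probe sets of the 10 genes were called in each comparison, against 0.0589% of all for E2F1 null, 0.0245% for E2F2 null and 0.00491% for E2F3 heterozygous tumours. Levels this far under the threshold give no order between the groups, and Fosb also tracked the ratio of 3′ to 5′ beta-actin signal, a measure of RNA integrity (Pearson r = 0.49, Spearman rho = 0.52, adjusted permutation p = 0.00218, r = 0.41 without the 2 farthest numbers).

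Jun, the main partner of Fos, was measured by 2 probe sets. By the brighter, the signal ran from 377 to 1353 with a median of 857 in E2F1 null, from 489 to 1655 with a median of 1001 in E2F2 null, and from 600.2 to 2077 with a median of 1050 in E2F3 heterozygous tumours, against 369.8 to 1295 with a median of 892 in wild-type tumours. Groups overlapped throughout. The log2 fold changes were -0.04 (SE 0.15), 0.10 (SE 0.16) and 0.22 (SE 0.16, unadjusted p = 0.167) in the E2F1 null, E2F2 null and E2F3 heterozygous groups. By the second probe set, at the probe set level, they were 0.05 (SE 0.13), 0.08 (SE 0.13) and 0.15 (SE 0.13). The 2 probe sets correlated at r = 0.66 over the 53 numbers.

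Junb, a Jun relative that can hold AP-1 activity down as well as supply it, ran from 179 to 819 with a median of 347 in E2F1 null, from 202 to 454 with a median of 317 in E2F2 null, and from 124 to 733 with a median of 386 in E2F3 heterozygous tumours, against 136 to 877 with a median of 374 in wild-type tumours. The E2F2 null tumours spanned 2.25-fold, and the other groups 4.58-fold to 6.43-fold. The log2 fold changes over wild type were -0.0021 (SE 0.19), -0.19 (SE 0.19) and 0.05 (SE 0.19) in the E2F1 null, E2F2 null and E2F3 heterozygous groups.

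Atf3, a stress-induced repressor of the ATF family, was the highest of the 9 genes relative to wild type in E2F2 null tumours. Its signal ran from 129 to 643 with a median of 229 in E2F1 null, from 144 to 630.0 with a median of 307 in E2F2 null, and from 96.6 to 551 with a median of 278 in E2F3 heterozygous tumours, against 91.5 to 517 with a median of 253 in wild-type tumours. The groups overlapped, and the E2F2 null values lay on average above the rest. The log2 fold change in E2F2 null tumours was 0.45 (SE 0.21, unadjusted p = 0.0362, limma adjusted p = 0.789). In E2F1 null and E2F3 heterozygous tumours it was 0.02 (SE 0.21) and 0.15 (SE 0.21).

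Egr1 had the widest range of the 9 tested genes, 16.5-fold. Its signal ran from 428 to 5951 with a median of 1811 in E2F1 null, from 482 to 3208 with a median of 1461 in E2F2 null, and from 574 to 5289 with a median of 1836 in E2F3 heterozygous tumours, against 770.3 to 7065 with a median of 2061 in wild-type tumours. The median was lowest in E2F2 null tumours, and no E2F2 null tumour exceeded 3208. The log2 fold change there was -0.56 (SE 0.28, unadjusted p = 0.0492, limma adjusted p = 0.789). In the same comparison 1 of 6 neutrophil markers was higher (median -0.52) and 0 of 10 endothelial markers were (median -0.11). So were 1 of 6 keratinization markers (-0.60), 1 of 6 basal markers (-0.21), 1 of 11 macrophage markers (-0.18) and 10 of 11 luminal markers (0.19). The median of all genes was -0.01. None of these markers passed the threshold, and their part in the Egr1 value was not tested. The other values were -0.16 (SE 0.27) in E2F1 null and -0.03 (SE 0.28) in E2F3 heterozygous tumours.

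Ier2 and Zfp36 varied least. Ier2 ran from 807 to 1699 with a median of 1082 in E2F1 null, from 567 to 1515 with a median of 1097 in E2F2 null, and from 618 to 1749 with a median of 1038 in E2F3 heterozygous tumours, against 509.9 to 1521 with a median of 1172 in wild-type tumours. Its log2 fold changes were 0.10 (SE 0.12), -0.03 (SE 0.13) and 0.0095 (SE 0.13). Zfp36 ran from 228 to 643 with a median of 370.3 in E2F1 null, from 283 to 514 with a median of 377 in E2F2 null, and from 279 to 557 with a median of 399 in E2F3 heterozygous tumours, against 300.1 to 479.5 with a median of 348 in wild-type tumours. Its log2 fold changes were 0.04 (SE 0.09), -0.01 (SE 0.10) and 0.14 (SE 0.10), in the same order of mutants. Both genes overlapped across all groups.

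The inducible HSP70 genes were read by 1 probe set named Hspa1a and 3 named Hspa1b. The 2 genes are near-identical copies, so which of them a probe set reads is uncertain, and the 3 Hspa1b probe sets are treated as 1 measurement. Hspa1a ran from 58.8 to 386 with a median of 171 in E2F1 null, from 72.9 to 733 with a median of 220 in E2F2 null, and from 80.3 to 632 with a median of 256 in E2F3 heterozygous tumours, against 53.02 to 579 with a median of 219 in wild-type tumours. Hspa1b, by its brightest probe set, ran from 631 to 3722 with a median of 2009 in E2F1 null, from 1071 to 4131 with a median of 2417 in E2F2 null, and from 693 to 4973 with a median of 2730.0 in E2F3 heterozygous tumours, against 534 to 6486 with a median of 2061 in wild-type tumours. E2F1 null tumours had the lowest median of both genes, with overlap of all groups. There, over wild type, 2 of 11 luminal markers were higher (median -0.12) and 1 of 16 hypoxia and glycolysis genes (median -0.15), none past the threshold, and their part in the HSP70 values was not tested. The log2 fold changes of Hspa1a were -0.37 (SE 0.24), 0.17 (SE 0.25) and 0.05 (SE 0.25), and those of Hspa1b were -0.29 (SE 0.24), 0.10 (SE 0.25) and 0.22 (SE 0.25), in the E2F1 null, E2F2 null and E2F3 heterozygous groups. The 3 Hspa1b probe sets correlated with each other at r = 0.976 to 0.991, and with the Hspa1a probe set at 0.698 to 0.718.

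Across the 9 genes, 4 were higher than wild type in E2F1 null tumours with a median log2 fold change of -0.0021, where all genes had 0.0076. In E2F2 null tumours 4 were higher, with a median of -0.0064 against -0.01 for all genes. In E2F3 heterozygous tumours 8 were higher, with a median of 0.14 against 0.0070 for all genes. In that comparison 11 of 11 skeletal muscle markers were higher (median 0.94), 9 of 10 fibroblast markers (0.42), 6 of 6 neutrophil markers (0.38) and 6 of 6 basal markers (0.31), none past the threshold, and their part in the shift was not tested. Since the genes vary together, as described further on, 8 of 9 is not 8 separate observations. The 3 comparisons share the wild-type tumours. The 95% intervals of the 27 gene-level fold changes lay between -1.11 and 0.88.

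**Figure D2:**
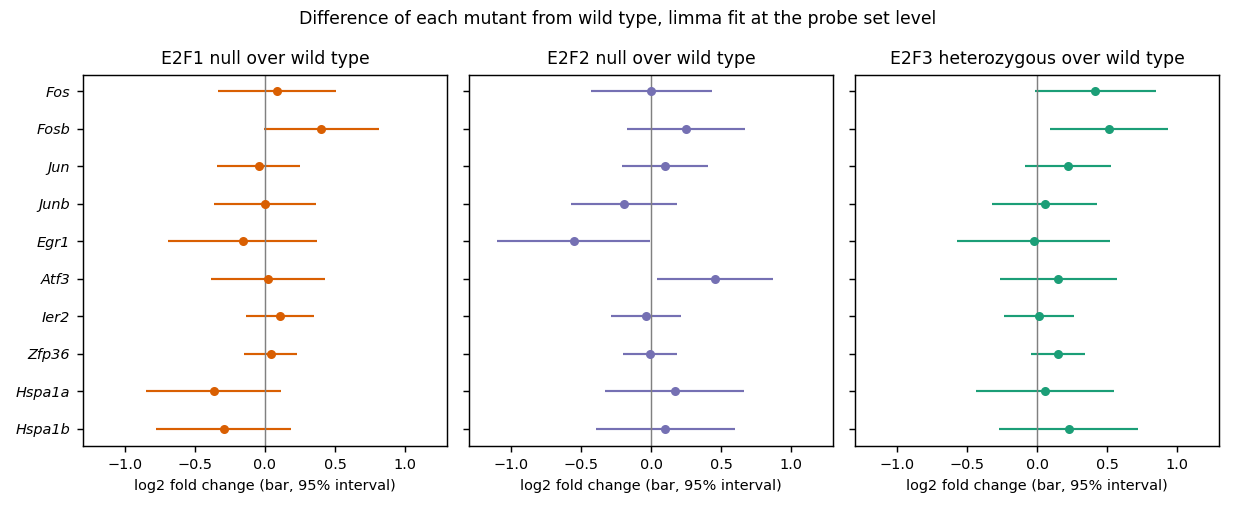
Log2 fold change of the brightest probe set of each gene (points) with its 95% interval (bars) in the E2F1 null, E2F2 null and E2F3 heterozygous groups over wild type, from the limma fit at the probe set level. The points lie between -0.55 (Egr1 in E2F2 null) and 0.51 (Fosb in E2F3 heterozygous), and none passed the adjusted threshold.

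Between mutant backgrounds the same 9 genes gave no call either. In E2F1 null over E2F2 null tumours 0 of 9 passed, against 0.16% of all genes. In E2F1 null over E2F3 heterozygous tumours 0 passed, against 0.0798% of all, and in E2F2 null over E2F3 heterozygous tumours 0 passed, against 0.0342% of all. The F test over the 4 genotypes called 0, against 0.148% of all genes, and the smallest unadjusted p of a member was 0.136, for Atf3. The lowest pairwise p-values were those of Hspa1a in E2F1 null over E2F2 null tumours, at -0.54 on the log2 scale (SE 0.25, unadjusted p = 0.0360, limma adjusted p = 0.506), of Hspa1b in E2F1 null over E2F3 heterozygous tumours, at -0.51 (SE 0.25, unadjusted p = 0.0442, limma adjusted p = 0.994), and of Atf3 in E2F1 null over E2F2 null tumours, at -0.43 (SE 0.21, unadjusted p = 0.0441, limma adjusted p = 0.517).

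Related gene lists gave no call either. Of 38 tested other immediate early genes, 0 rose and 0 fell in any mutant over wild type. The median log2 fold changes were 0.08, -0.09 and 0.10 in the E2F1 null, E2F2 null and E2F3 heterozygous groups. Those furthest from wild type on average were Dusp1, a phosphatase that switches MAP kinases off (0.31, -0.09 and 0.37), the nuclear receptor Nr4a1 (0.55, 0.08 and -0.11) and the zinc finger factor Klf4 (-0.0092, 0.09 and 0.45). Of 15 other AP-1 and ATF genes 0 were called, and the largest mean values were those of Fosl2, a Fos relative (0.05, 0.17 and 0.28), Jdp2, a repressor of AP-1 (0.10, 0.03 and 0.32), and Jund, a Jun relative (-0.03, 0.25 and 0.15). Of 25 other heat shock and chaperone genes 0 were called, with Hspb1, a small heat shock protein, at 0.22, 0.18 and 0.16, the HSP90 partner Chordc1 at -0.10, -0.13 and -0.09, and Dnajb9, a co-chaperone of the endoplasmic reticulum, at -0.03, -0.24 and 0.06. Of 4 serum response factor and ternary complex factor genes 0 were called, with Srf itself at 0.11, 0.03 and 0.14, its co-activator Mrtfa at -0.14, -0.16 and 0.13, and the ternary complex factor Elk4 at 0.08, -0.05 and 0.10. Of 12 integrated stress response genes 0 were called, with the pseudokinase Trib3 at -0.39, -0.05 and 0.0057, Phgdh, the first enzyme of serine synthesis, at 0.10, 0.25 and 0.065, and Ppp1r15a, which lets translation resume, at 0.15, 0.01 and 0.20. Of 10 MAPK feedback genes 0 were called. All 10 were above wild type in E2F1 null tumours (median 0.34, all genes 0.0076). In E2F2 null tumours 9 were below it (median -0.26, all genes -0.01), and in E2F3 heterozygous tumours 3 were above it (median -0.08). Whether these genes vary together was not tested, so such counts may not be separate observations. Etv4, a transcription factor downstream of ERK, had 0.66 (SE 0.63) in E2F1 null, -0.95 (SE 0.65) in E2F2 null and -0.13 (SE 0.65) in E2F3 heterozygous tumours. In the same order, Dusp6, which removes phosphate from ERK, had 0.43 (SE 0.54), -0.71 (SE 0.56) and -0.12 (SE 0.56). Spred2, an inhibitor of the same pathway, had 0.31 (SE 0.19), 0.04 (SE 0.20) and 0.07 (SE 0.20). Of 9 NF-kB and inflammatory targets 0 were called, with the NF-kB subunits Relb at 0.13, 0.24 and 0.35 and Nfkb2 at -0.0016, -0.19 and -0.16, and the inhibitor Nfkbia at -0.07, 0.23 and 0.18. Of 16 hypoxia and glycolysis genes 0 were called, with Ndrg1 at -0.25, 0.53 and 0.37, the hexokinase Hk2 at -0.21, -0.12 and -0.12, and the kinase Pdk1 at -0.07, 0.31 and 0.08. Fosl1 and Phlda1 stand in the MAPK list and in 1 of the other lists. The integrated stress response list shares Atf4 with the AP-1 and ATF list, and Ppp1r15a with the list of other immediate early genes.

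Tumours of the same genotype differed widely in most of these genes. The SD of the log2 signal within genotypes was 0.83 for Egr1, 0.76 for Hspa1a, 0.76 for Hspa1b, 0.67 for Fos, 0.64 for Atf3, 0.58 for Junb, 0.46 for Jun, 0.38 for Ier2 and 0.29 for Zfp36. The median of the 9 genes was 0.64, against 0.36 over all tested genes, and 8 of the 9, all but Zfp36, lay above the median of all genes. Among all tested genes Egr1 lay at the 86.8th percentile of SD and Zfp36 at the 32.8th. The highest tumour was not the same from gene to gene. Wild-type tumour 18 had the highest Egr1 (7065) and Junb (877) and the 4th highest Fos (2775) and Hspa1b (4231). Wild-type tumour 4 had the highest Hspa1b (6486) and the 5th highest Fos (2676) and Hspa1a (503), but ranked 70th of 80 for Egr1 (946). E2F1 null tumour 18 had the highest Atf3, E2F3 heterozygous tumour 19 the highest Jun, and E2F2 null tumour 10 the highest Hspa1a (733).

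Tumours that share a label number resembled each other in some of these genes and not in others. The correlation between tumours of the same number, estimated by limma within genotypes, was 0.40 for Fos, 0.33 for Junb, 0.32 for Hspa1b, 0.32 for Zfp36, 0.27 for Ier2, 0.27 for Hspa1a, 0.09 for Atf3, 0.04 for Egr1 and -0.06 for Jun. The median over the 9 genes was 0.27, against 0.16 over all tested genes. For Atf3 the widest difference within a number was 4.99-fold, against 7.03-fold over all 80 tumours. For Egr1 and Fos the widest were 6.38-fold and 3.43-fold, against 16.5-fold and 9.88-fold. The E2F1 null tumours 18 and 19, which share a number, had 643 and 129 units of Atf3, ranks 1 and 75 of 80. The 3 E2F2 null tumours 6, 7 and 8, which share another, had 503, 3208 and 1447 units of Egr1 and 1161, 2872 and 838 units of Fos. Over the 19 shared numbers the median ratio of the highest to the lowest tumour was 1.86 for Egr1, 1.64 for Fos, 1.69 for Hspa1b and 1.33 for Atf3.

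Several of the genes rose and fell together from tumour to tumour. After centring on genotype, 36 of the 45 pairs had a Pearson r above 0 over the 53 numbers, and 13 pairs, all positive, passed an adjusted permutation p of 0.05 (12 of them also by Spearman's rho). The 13 include Hspa1a with Hspa1b, near-identical copies whose probe sets may read the same transcripts. The weakest r among the 13 was 0.346. Without the 2 numbers farthest from the median of the first gene, r in the 13 pairs lay between 0.32 and 0.69. A correlation of 0.346 or more was found in 28.9% of the pairs, and between a member and any other tested gene in 9.34% of 87600 cases. That cut-off was taken from the 13 pairs themselves, so the 28.9% is those 13 pairs again, Hspa1a with Hspa1b included. The difference between the 2 shares was not tested. These shares differed by member, each over only 9 other members. Fos reached it with 55.6% of the other members against 10.7% of all other genes, and Egr1 with 33.3% against 20.55%. For Junb the values were 33.3% and 14.4%. Ier2 reached it with 11.1% of the other members and 11.1% of all other genes. The 45 pairs include Fosb, which passed with no partner.

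Fos and Hspa1b formed the strongest pair of genes with unrelated sequence, with r = 0.67, rho = 0.67 and an adjusted permutation p of 0.00015, which rests on the smallest p that 100000 resamples can give. Without the 2 farthest numbers it was 0.64. Within genotypes r was 0.67 in E2F1 null, 0.77 in E2F2 null, 0.54 in E2F3 heterozygous and 0.74 in wild-type tumours. Fos also tracked Hspa1a (r = 0.51, rho = 0.53, adjusted p = 0.000836), Jun (0.55, rho 0.61, adjusted p = 0.00027), Zfp36 (0.52, rho 0.56, adjusted p = 0.00045) and Egr1 (0.49, rho 0.48, adjusted p = 0.00129). Within genotypes the Fos and Jun correlation was 0.30 in E2F1 null, 0.75 in E2F2 null, 0.83 in E2F3 heterozygous and 0.65 in wild-type tumours, and the Fos and Egr1 correlation lay between 0.46 and 0.52. Hspa1a and Hspa1b correlated at 0.70 (rho 0.70, within genotypes 0.64 to 0.91). These genes are near-identical copies, and which of them a probe set reads is uncertain. Whether their probe sets read the same transcripts was not tested, so the value is not evidence that separate genes vary together.

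Junb shared the partners Egr1 and Zfp36 with Fos and also had Ier2, which Fos did not track (r = 0.0067). It tracked Egr1 (r = 0.56, rho = 0.56, adjusted permutation p = 0.00015), Ier2 (0.55, rho 0.56, adjusted p = 0.00027) and Zfp36 (0.46, rho 0.48, adjusted p = 0.00207). In E2F2 null tumours, where Junb varied least, these were 0.21, 0.09 and 0.06, and in wild-type tumours 0.52, 0.71 and 0.59. With each array centred on its median, the Junb and Zfp36 correlation was 0.33 and no longer passed (adjusted p = 0.0523). Egr1 and Zfp36 correlated at 0.48 (rho 0.45, adjusted p = 0.00145). Atf3 tracked Jun (0.40, rho 0.44, adjusted p = 0.0149) and Hspa1a (0.38, rho 0.35, adjusted p = 0.0188), the second with r = 0.85 in E2F2 null and -0.0031 in E2F1 null tumours. Jun and Zfp36 correlated at 0.35 (adjusted p = 0.0378) but not past the threshold by rho (0.31, adjusted p = 0.0596), with 0.84 in E2F3 heterozygous and 0.01 in E2F2 null tumours. The lowest values were those of Ier2 with Hspa1a (-0.31, adjusted p = 0.0694) and with Atf3 (-0.30), and of Egr1 with Atf3 (-0.28, adjusted p = 0.0875), none past the threshold by Pearson's r; by rho, Egr1 with Atf3 passed (-0.34, adjusted p = 0.0418), and so did Jun with Hspa1b (0.40, adjusted p = 0.0130), whose r of 0.33 had not passed (adjusted p = 0.0534).

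**Figure D3:**
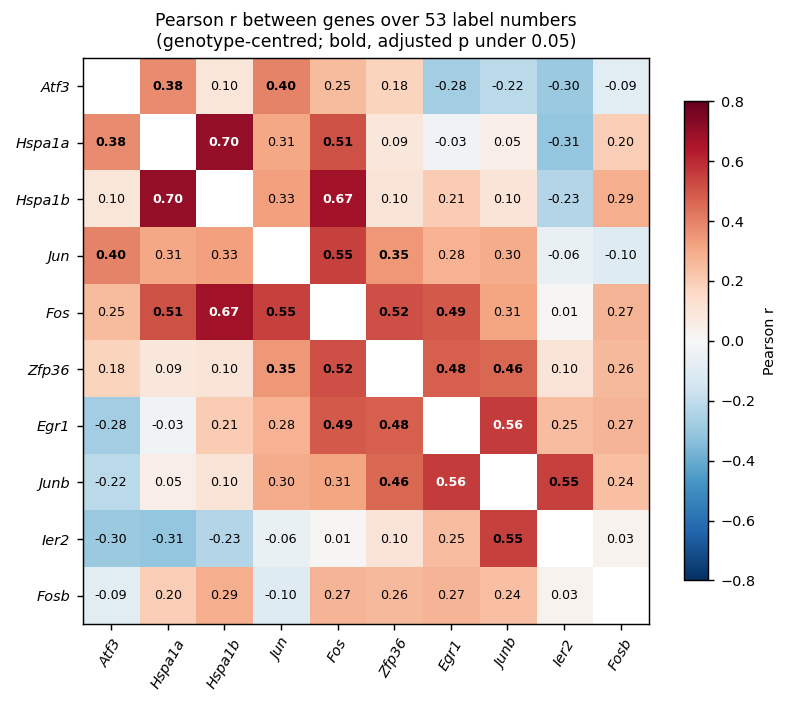
Pearson r between the 10 genes over 53 label numbers, centred on genotype (colour and printed value; bold where the adjusted permutation p is under 0.05). The order of the genes was set by hand, and 36 of the 45 pairs are positive. Atf3, Hspa1a, Hspa1b, Jun and Fos, at the top left, have only positive values with each other, not all of them bold. These run from 0.10 (Atf3 with Hspa1b) to 0.70 (Hspa1a with Hspa1b). Fos, Zfp36, Egr1 and Junb also have only positive values with each other. Ier2 has negative values with Atf3, Hspa1a and Hspa1b.

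The correlations were set beside array quality and beside scores of other gene lists, each score being the mean over the tested genes of a list, members left out, of the log2 signal minus the gene's mean. Of 210 relations (21 measures with 10 genes) 61 passed an adjusted permutation p of 0.05, 55 of them positive, and 50 passed by rho as well. No share of all tested genes stands beside these counts or beside the counts for single scores below. Whether they are particular to these genes was therefore not tested. Of the 9 tested genes, 1 passed with the Gapdh 3′ to 5′ ratio (Egr1, r = 0.37, rho 0.34, adjusted p = 0.0301) and 0 with that of beta-actin. The median log2 signal of the array moved with Junb (r = 0.47, rho 0.47, adjusted p = 0.00413) and with Egr1 (r = 0.37, rho 0.41, adjusted p = 0.0301), values of 0.41 and 0.28 without the 2 farthest numbers. With the array median taken out of both genes by regression, Junb and Egr1 correlated at 0.47 in place of 0.56. The group ranges of the Gapdh log2 ratio were -0.50 to -0.02 in E2F1 null, -0.44 to -0.21 in E2F2 null and -0.45 to -0.18 in E2F3 heterozygous tumours, against -0.37 to -0.16 in wild-type tumours.

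Fos and both HSP70 genes moved with luminal epithelial markers. Hspa1b had r = 0.73 with the luminal score (rho 0.71, adjusted permutation p = 0.000191), Fos 0.66 (rho 0.65, adjusted p = 0.000191), Hspa1a 0.59 (rho 0.57, adjusted p = 0.000191) and Jun 0.49 (rho 0.52, adjusted p = 0.00181). Without the 2 farthest numbers these were 0.71, 0.62, 0.52 and 0.44. Within genotypes Hspa1b had 0.85 in E2F1 null, 0.62 in E2F2 null, 0.56 in E2F3 heterozygous and 0.81 in wild-type tumours. Of the 11 luminal genes 10 correlated positively with Hspa1b, led by the keratin Krt19 (0.75), Krt8 (0.63) and the adhesion protein Cdh1 (0.57), while Epcam had -0.10 and Krt18 0.16. Fos gave the same picture, with 0.69 for Krt19, 0.57 for Krt8 and -0.09 for Epcam. The luminal genes named here were chosen after their values were seen. In an alternative added after the data were seen, with the luminal score taken out of both genes by regression, Fos and Hspa1b correlated at 0.37 in place of 0.67, Fos and Hspa1a at 0.20 in place of 0.51, and Hspa1a and Hspa1b at 0.49 in place of 0.70. The luminal score ran from -0.92 to 0.50 in E2F1 null, from -1.20 to 0.79 in E2F2 null and from -0.62 to 1.06 in E2F3 heterozygous tumours, against -0.996 to 0.69 in wild-type tumours. Basal markers passed with 6 of the 9 genes, among them Fos (r = 0.57, rho 0.54, adjusted p = 0.0003), Egr1 (0.56, rho 0.57, adjusted p = 0.0003) and Hspa1b (0.49, rho 0.45, adjusted p = 0.00179). Zfp36 (0.36), Junb (0.35) and Jun (0.34) passed by r and not by rho.

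Egr1 had its highest r with neutrophil markers, at 0.72 (rho 0.78, adjusted permutation p = 0.000191), and 0.70 without the 2 farthest numbers. Within genotypes r was 0.75 in E2F1 null, 0.36 in E2F2 null, 0.70 in E2F3 heterozygous and 0.84 in wild-type tumours. All 6 tested neutrophil markers correlated positively with Egr1, from 0.29 for the granule protein Ngp to 0.66 for the decoy receptor Il1r2, with S100a8 at 0.58 and S100a9 at 0.62. These markers, too, are singled out with their values known. None of the 6 exceeded the dim-signal threshold on every array, and Cxcr2 and Camp did not pass the filter. The neutrophil score ran from -1.27 to 2.61 in E2F1 null, from -1.43 to 1.52 in E2F2 null and from -0.75 to 2.49 in E2F3 heterozygous tumours, against -1.66 to 2.56 in wild-type tumours. Junb (r = 0.42, rho 0.46) and Zfp36 (0.34, rho 0.31) moved the same way, and Atf3 the opposite way (-0.35, rho -0.41, adjusted p = 0.0376), with -0.10 in wild-type tumours. Zfp36 did not pass by rho (adjusted p = 0.0781), and its r was 0.18 without the 2 farthest numbers, on which it rests. Egr1 also tracked NF-kB targets (0.64), keratinization markers (0.59), basal markers (0.56) and endothelial markers (0.52). With the neutrophil score taken out of both genes, Egr1 and Junb correlated at 0.41 in place of 0.56. The part of neutrophils, of epithelial content or of handling in the spread of these genes was not tested.

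**Figure D4:**
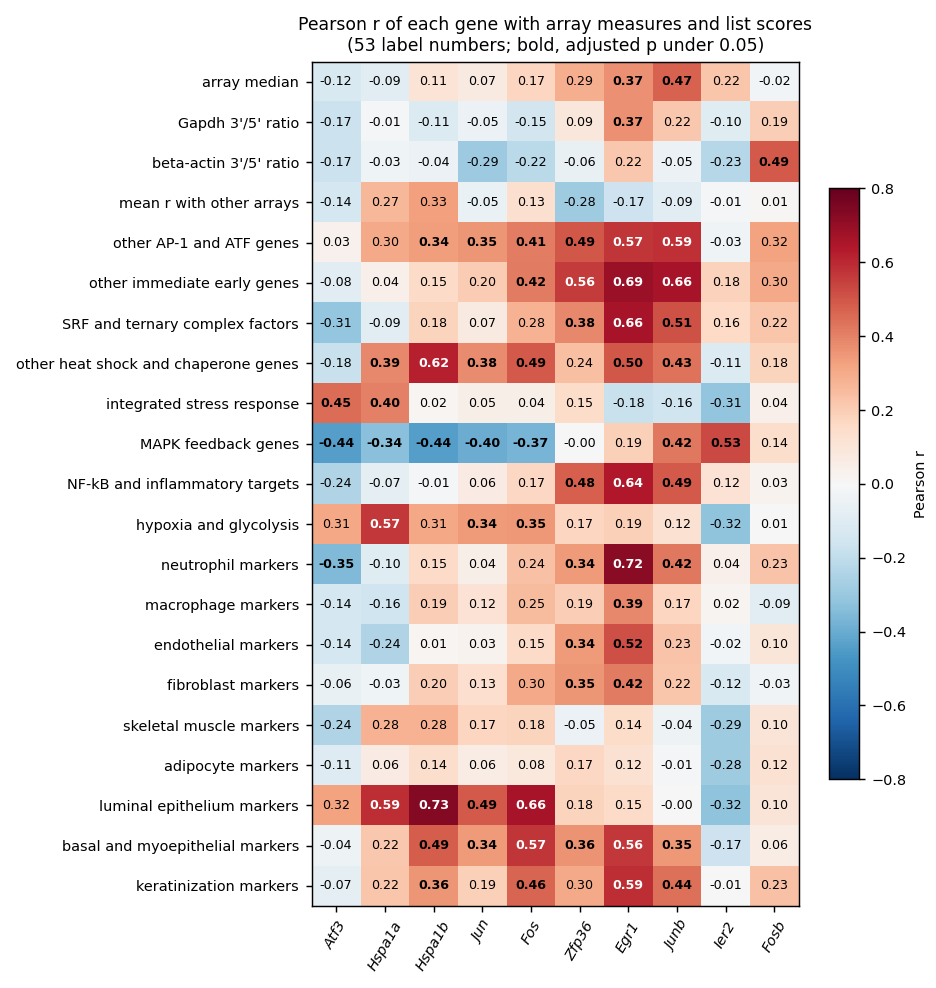
Pearson r of each gene (columns) with 4 array measures and 17 list scores (rows) over 53 label numbers, centred on genotype; bold marks an adjusted permutation p under 0.05. Hspa1b and Fos are highest with luminal markers (0.73 and 0.66), Egr1 with neutrophil markers (0.72), and the MAPK feedback row runs from -0.44 for Hspa1b to 0.53 for Ier2.

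The rest of the immediate early program followed Egr1 and Junb. Its score of 38 genes correlated with Egr1 at 0.69 (rho 0.68), Junb at 0.66 (rho 0.69) and Zfp36 at 0.56 (rho 0.54), each with an adjusted permutation p of 0.000191, and with Fos at 0.42 (rho 0.37, adjusted p = 0.0108). Without the 2 farthest numbers these were 0.65, 0.65, 0.47 and 0.35. With Jun, Atf3, Ier2, Hspa1a and Hspa1b it was between -0.08 and 0.20, and none of these passed. Egr2, an Egr1 relative, had r = 0.82 with Egr1, and Nab2, a co-repressor of the EGR proteins, 0.65 with Egr1 and 0.74 with Junb. Nr4a1, induced by the same kinases in many cell types, had -0.20 with Egr1 and -0.41 with Fos. Serum response factor and its partners correlated with Egr1 at 0.66 (rho 0.68, adjusted p = 0.000191) and with Fos at 0.28, which did not pass. These single genes were picked after their values were seen.

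The genes of the MAPK feedback list, which ERK signalling switches on and only some of which limit it, divided the set. Their score rose with Ier2 (r = 0.53, rho 0.53, adjusted permutation p = 0.000817) and Junb (0.42, rho 0.43, adjusted p = 0.0101). It fell with Hspa1b (-0.44, rho -0.44, adjusted p = 0.00689), Atf3 (-0.44, rho -0.45, adjusted p = 0.00713), Jun (-0.40, rho -0.43, adjusted p = 0.0157) and Fos (-0.37, rho -0.41, adjusted p = 0.0300). Hspa1a passed by r (-0.34, adjusted p = 0.0491) and not by rho (-0.30, adjusted p = 0.104). Without the 2 farthest numbers the values of these 7 genes were 0.50, 0.40, -0.41, -0.43, -0.37, -0.36 and -0.32. All 10 genes of the list correlated positively with Ier2 and 9 of 10 negatively with Fos; Dusp6 had 0.56 and -0.43, and Etv5, an ETS factor, 0.61 and -0.48. The exception with Fos was Fosl1 (0.22), itself a Fos relative. Etv5 and Fosl1 are named with their values known. Within genotypes the value for Fos was -0.55 in E2F1 null, -0.51 in E2F2 null, -0.0091 in E2F3 heterozygous and -0.20 in wild-type tumours, and for Ier2 0.54, 0.40, 0.13 and 0.74.

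The score of 25 other chaperone genes passed with 6 of the 9 tested genes, of both kinds. Gene by gene the list was divided for the immediate early genes. Of the 25, 14 had r above 0 with Fos (median 0.03), 14 with Jun (0.02), 14 with Egr1 (0.10) and 16 with Junb (0.07). With Hspa1a 19 were above 0 (median 0.21) and with Hspa1b 20 (0.17). A score that passed therefore does not mean that the chaperones moved with a gene as a class. It correlated with Hspa1b at 0.62 (rho 0.51, adjusted permutation p = 0.000191) and with Hspa1a at 0.39 (rho 0.34, adjusted p = 0.0216), or 0.56 and 0.28 without the 2 farthest numbers. Egr1 (0.496, rho 0.50, adjusted p = 0.00201), Fos (0.49, rho 0.49, adjusted p = 0.00218) and Junb (0.43, rho 0.40, adjusted p = 0.00828) had higher r with it than Hspa1a, and Jun passed by r (0.38, adjusted p = 0.0233) and not by rho (0.28, adjusted p = 0.113). Single chaperones differed: Dnaja1 and Dnajb1, HSP70 co-chaperones, had 0.64 and 0.48 with Hspa1b, and Cryab, a small heat shock protein, 0.59, while Hspa8, the constitutive HSP70, had 0.17, Hsp90aa1 0.27 and Hsph1 0.11. Hspa1a, beside its 0.59 with the luminal score, moved with hypoxia and glycolysis genes (0.57, rho 0.56, adjusted p = 0.0003), with 0.44 in E2F1 null, 0.65 in E2F2 null, 0.70 in E2F3 heterozygous and 0.55 in wild-type tumours. Atf3 moved with integrated stress response genes (0.45, rho 0.40, adjusted p = 0.00511), and 0.33 without the 2 farthest numbers, led by Chac1, which degrades glutathione (0.57), and Asns, asparagine synthetase (0.44). Its correlation with Atf4, the factor that drives that response, was 0.14 at the transcript level. The chaperones and stress genes given singly were chosen after their values were seen.

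**Figure D5:**
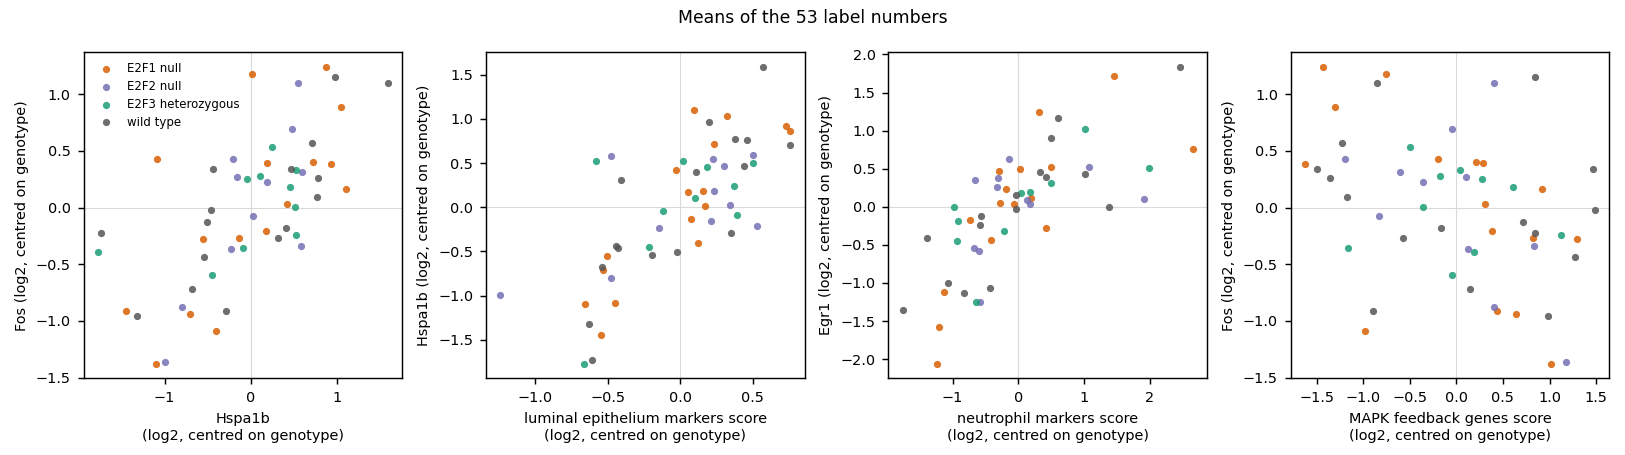
Means of the 53 label numbers, on the log2 scale and centred on genotype, for Fos against Hspa1b, Hspa1b against the luminal score, Egr1 against the neutrophil score and Fos against the MAPK feedback score; colours mark the genotype. The first 3 panels rise (r = 0.67, 0.73 and 0.72) in all 4 genotypes, and the last falls (r = -0.37) with wide scatter.

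Among all other tested genes, those closest in pattern to a member over the 53 numbers differed from member to member. For Fos they were Anxa1 (r = 0.79), a phospholipid-binding protein, Dmkn (0.77), secreted by differentiating epidermis, and Gch1 (0.74), which starts tetrahydrobiopterin synthesis. For Hspa1b they were Krt19 (0.75), the retinoic acid carrier Crabp2 (0.74) and Dmkn (0.73), so Dmkn stood in both lists. For Egr1 they were Egr2 (0.82), Sertad1 (0.79) and Arap2 (0.78). For Junb they were Cyth2 (0.74), the transcription factor Stat3 (0.74) and Nab2 (0.74). For Hspa1a they were Ndrg1 (0.69), a gene induced by hypoxia, Elovl7 (0.64) and the oxygen sensor Egln1 (0.61). For Jun they were the glutathione peroxidase Gpx4 (0.68), 2310030G06Rik (0.66) and Cryab (0.66). For Atf3 they were Denn2b (0.67), Clic4 (0.66) and Ifi35 (0.65), for Ier2 Ube2d1 (0.75), Ptk7 (0.73) and Ctnnbip1 (0.70), for Zfp36 Pvr (0.63), Mvp (0.57) and Uap1l1 (0.57), and for Fosb Rbm6 (0.62), Efnb1 (0.57) and Samd4b (0.53).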

How the data were processed

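RNA of 80 mammary tumours was hybridised to 1-colour Affymetrix arrays. The deposited table holds linear intensity values that the authors made with MAS5 in Affymetrix Expression Console, per the submitters' processing notes; the program version is given in none of the sources used here. Of 22690 probe sets, 64 controls were left out; 20380 carried 1 gene symbol, 691 several and 1555 none, and only the first kind was used. Values were converted to log2(value + 5). Probe sets above 74.6, the 40th percentile, on at least 10 arrays were kept, and the brightest stood for a gene, which left 8769 genes. Fits were made in R 4.3.3 by limma 3.58.1, helped by statmod 1.5.0, with trend and robust moderation, and the label number as a random block (consensus correlation 0.159). P-values were two-sided, with Benjamini-Hochberg adjustment over all genes tested. A second fit used all 20380 probe sets without the filter. Correlations used means per label number centred on genotype, with 100000 resamples, adjusted over the 45 pairs or the 210 relations (Python 3.11.15, numpy 2.4.6, pandas 2.3.3, scipy 1.17.1; plots by matplotlib 3.10.9). The fit was tested on simulated data. Arrays give no counts, so their number limits the precision.

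The members and lists were chosen with earlier results of these data known. By the naming rule, all members and their probe sets are named, as are the genes of a pathway list that passed in any comparison or else the 3 with the largest mean log2 fold change, and the 3 tested genes closest to each member by r; other genes are marked in the text as chosen after, or named with, their values known. Of the lists of cell type markers, those for macrophages, fibroblasts, skeletal muscle and adipocytes are shown in the plot of list scores. Alternatives changed the pseudocount, filter, probe set rule, block, scaling, moderation, the Gapdh ratio as a covariate, and left out E2F1 null tumour 6.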

Additional observations from a re-analysis of the deposited data

How the results depend on the processing

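No immediate early or heat shock gene passed the adjusted threshold in any comparison under the 12 alternatives to the fit. The lowest adjusted p was 0.358, in E2F1 null over E2F2 null tumours (limma). Of 648 member fold changes under those alternatives 19 had the other sign, all with a size of at most 0.05 on the log2 scale in the fit reported. The number of all genes called ran from 1 to 8 in E2F1 null over wild type (4 reported), from 2 to 3 in E2F2 null over wild type (2), and was 0 in E2F3 heterozygous over wild type. It ran from 7 to 19 in E2F1 null over E2F2 null (14), from 3 to 10 in E2F1 null over E2F3 heterozygous (7), from 1 to 5 in E2F2 null over E2F3 heterozygous (3) and from 8 to 16 in the F test (13). With each tumour on its own, 22 pairs of genes passed in place of 13; the other alternatives gave 13 to 17. The relations that passed numbered 55 to 80. The 13 pairs stayed positive with each of 6 scores or array measures taken out, alternatives chosen after the data were seen and given without a p-value. Their size did not always hold. With the basal score taken out, Fos and Egr1 fell from 0.49 to 0.25, while Junb and Ier2 rose from 0.55 to 0.65. With the luminal score taken out, Fos and Hspa1a fell from 0.51 to 0.20 and Atf3 and Hspa1a from 0.38 to 0.24. No paired analysis was possible because the replicate numbers were given in accession order and pair no samples across groups. Signals under the dim-signal threshold, as for Fosb, set a limit on any order of groups.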
